A study of Mus musculus with 4 samples.

Results

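The 67 genes described here are the mouse ATP-binding cassette (ABC) proteins of subfamilies A to G, the organic anion transporters of the Slco family, the sodium-dependent bile acid uptake carrier Slc10a1 and the 2 subunits of the organic solute transporter, Slc51a and Slc51b. They were taken by a rule on gene symbols from the 32285 mouse genes of the deposited matrices: 50 Abc genes, 14 Slco genes and 3 Slc genes. The rule was set with earlier results of these data known. The samples are livers of male mice in which Rbpj was deleted specifically in hepatic progenitor cells (CKO, 2 libraries, replicates 1 and 2) and of male wild-type mice (WT, 2 libraries, replicates 1 and 2). Mice of both groups were given the DDC diet for 4 weeks, starting at an age of 10 to 11 weeks. DDC feeding is a model of bile duct injury in which porphyrin accumulates. There was no group on normal chow among these samples, so each value describes a DDC-fed liver. RNA of single nuclei was counted as unique molecular identifiers (UMIs), each UMI standing for 1 captured RNA molecule. The sources used here name neither the driver nor the exons of the Rbpj deletion, and the labels do not say whether the libraries of a group came from separate animals, so the spread between libraries may be technical in part.

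Hepatocytes take up bile acids and other organic anions from sinusoidal blood through Slc10a1 and Slco proteins. They export them across the canalicular membrane into bile through ABC proteins, each driven by ATP, with the bile salt export pump Abcb11, the conjugate pump Abcc2, the phospholipid floppase Abcb4 and the sterol pair Abcg5 and Abcg8 as the main ones. Abcc3, Abcc4 and Slc51a with Slc51b return bile acids and conjugates to blood, a route known to gain in use in cholestasis. Other ABC proteins move lipids, heme precursors, peroxisomal substrates or drugs in many cell types, and those of subfamilies E and F lack membrane-spanning domains and act at ribosomes.

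Expression of the bile acid carriers is known to be set at their promoters by nuclear receptors, which bind repeats of the core site AGGTCA. The promoters below are those of 4 genes the results return to, 3 of which stood out in hepatocyte-like nuclei, and are RefSeq windows of 250 bases before to 50 bases after the gene start (build GRCm38.p6, written 5′ to 3′ on the strand of the gene). Capitals mark, in Abcb11 and Slco1b2, the inverted repeat made of GGNCA and TGACCT with any 1 base between them (N is any base), and the core site AGGTCA, on either strand, in Abcc2 and Slco1a1.
Abcb11 (chr2:69342567-69342866, - strand): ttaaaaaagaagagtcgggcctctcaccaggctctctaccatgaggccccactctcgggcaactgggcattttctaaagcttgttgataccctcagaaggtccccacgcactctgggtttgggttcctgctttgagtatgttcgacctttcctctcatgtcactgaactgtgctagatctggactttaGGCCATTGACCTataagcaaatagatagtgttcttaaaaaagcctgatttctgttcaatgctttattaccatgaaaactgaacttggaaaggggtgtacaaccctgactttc
Slco1b2 (chr6:141629268-141629567, + strand): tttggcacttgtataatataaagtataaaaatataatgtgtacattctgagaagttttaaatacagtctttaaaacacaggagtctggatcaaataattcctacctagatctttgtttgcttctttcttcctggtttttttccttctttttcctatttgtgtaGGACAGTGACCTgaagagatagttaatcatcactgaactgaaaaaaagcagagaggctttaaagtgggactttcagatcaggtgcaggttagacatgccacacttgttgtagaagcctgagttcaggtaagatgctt
Abcc2 (chr19:43782058-43782357, + strand): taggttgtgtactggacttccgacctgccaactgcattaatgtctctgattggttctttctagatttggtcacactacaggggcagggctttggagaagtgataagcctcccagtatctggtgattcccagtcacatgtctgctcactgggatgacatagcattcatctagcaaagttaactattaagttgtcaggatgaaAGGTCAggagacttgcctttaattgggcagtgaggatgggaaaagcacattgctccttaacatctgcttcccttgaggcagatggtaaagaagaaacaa
Slco1a1 (chr6:141946913-141947212, - strand): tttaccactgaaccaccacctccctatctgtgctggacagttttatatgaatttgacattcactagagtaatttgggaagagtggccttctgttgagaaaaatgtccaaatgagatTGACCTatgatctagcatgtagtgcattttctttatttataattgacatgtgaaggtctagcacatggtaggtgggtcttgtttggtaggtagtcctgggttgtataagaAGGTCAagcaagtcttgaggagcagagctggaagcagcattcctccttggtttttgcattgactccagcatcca
The inverted repeat began 62 bases before the start of Abcb11 and 87 bases before the start of Slco1b2. It was searched on both strands and was found in 2 of the 53 members with a window, and in 0.107% of the 27025 genes with one. It ends in TGACCT, the core site read on the other strand, so the 2 motifs overlap. The core site itself was found in 11 of the 53 members and in 18.1% of all genes. Slco1a1 held 2 core sites. A match of letters describes the window and does not show that a factor binds there.

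The libraries held 16000 and 5184 barcodes in CKO, against 16000 and 6480 barcodes in WT. Their totals were 38003108 and 12261329 UMIs in CKO, against 45620141 and 13914845 UMIs in WT. After doublets were removed, 39017 barcodes were clustered on genes that did not include the 67 members, and clusters were named from marker genes. Of these barcodes 18270 fell in named clusters, and 20747 stayed unnamed. Hepatocyte-like nuclei numbered 933 and 1655 in CKO, against 1777 and 1126 in WT. Cholangiocyte-like nuclei numbered 497 and 46 in CKO, against 1451 and 313 in WT. Between 19 and 114 barcodes were shared by each pair of libraries. The hepatocyte-like nuclei of each library formed a cluster of their own, with 924 of 933 and 1642 of 1655 nuclei of the CKO libraries in separate clusters. The CKO replicate 1 library also had its own clusters of macrophage-like nuclei (98.4%) and endothelial-like nuclei (94.1%). Hepatocyte-like nuclei showed 6 or 7 of 15 hepatocyte markers at 1.5 times or more the level in the barcodes with the fewest UMIs. The main hepatocyte-like clusters of CKO replicate 1 and CKO replicate 2 each showed 6 of 15, at the naming limit of 40%. They also showed 5 and 6 of 16 cholangiocyte markers, so the margin of their names was small. The larger cholangiocyte-like cluster showed 13 of 16 cholangiocyte markers. Summed, the 15 hepatocyte markers stood at 29412 and 30012 CPM in the hepatocyte-like nuclei of the CKO libraries, against 28371 and 26943 CPM in those of the WT libraries. In the fewest-UMI barcodes they stood higher, at 54568 and 41065 CPM in CKO, against 38114 and 36422 CPM in WT, so that the name of the class rests on the 6 or 7 raised markers and not on the sum. Rbpj, the targeted gene, had 73.3 and 40.3 CPM in the cholangiocyte-like nuclei of the CKO libraries (108 and 4 UMIs), against 81.3 and 65.4 CPM in those of the WT libraries (374 and 45 UMIs), with a log2 change of -0.07 (SE 0.26, adjusted p = 1.0 by the edgeR test). Since the deleted exons are not given in the sources used here, UMIs from the remaining gene cannot show the deletion.

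Levels are given as CPM, the UMIs of a gene relative to all UMIs of that class in that library, without further scaling. They are not per gene length, so levels are compared between classes and libraries for 1 gene, not between genes. As a stand-in for free RNA, which enters every droplet, the same CPM was computed in the 10% of kept barcodes with the fewest UMIs in each library. These barcodes passed the minimum of 500 genes and were not taken out of the classes, so they are not empty droplets. They can hold nuclei as well as free RNA. A member that is not raised over them may still be expressed in a class. A member is called raised in a class where its pooled level was at least 2 times that in the fewest-UMI barcodes and rested on at least 50 UMIs. Of the 67 members 31 were raised in at least 1 class, 10 of them in more than 1, and 22 were raised in none although they had 50 UMIs or more in all kept barcodes. Among these 22 were Abca2, Abca4, Abca5, Abca13, Abcb1a, Abcb1b, Abcb6, Abcb8, Abcc3, Abcd2, Abcd3, Abce1, Abcf1, Abcf2, Abcf3, Abcg2, Slc10a1, Slc51b, Slco1a6 and Slco1b2. Slco1a6 had 3.35 CPM in cholangiocyte-like nuclei, against 0.587 CPM in the fewest-UMI barcodes. It missed the call there only by the minimum of 50 UMIs, and was raised there at a minimum of 20 UMIs. The other 14 had 2 to 43 UMIs in all 39017 barcodes: Abca12, Abca15, Abca16, Abca17, Abcb5, Abcc8, Abcg4, Slc51a, Slco1a5, Slco1c1, Slco4a1, Slco4c1, Slco6c1 and Slco6d1. The members made up 0.908% of the UMIs of hepatocyte-like nuclei, and between 0.381% and 0.460% in the other 8 named classes. In the unnamed barcodes the share was 0.402%, within the range of those 8 classes. In hepatocyte-like nuclei 19 members were raised, against 8 in macrophage-like, 7 in cholangiocyte-like, 6 in mesenchymal-like and 4 in endothelial-like nuclei. T and NK lymphocyte-like and B lymphocyte-like nuclei had none. In these 2 classes 54 and 59 of the 67 members had under 50 UMIs and could not be called raised at any level.

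**Figure D1:**
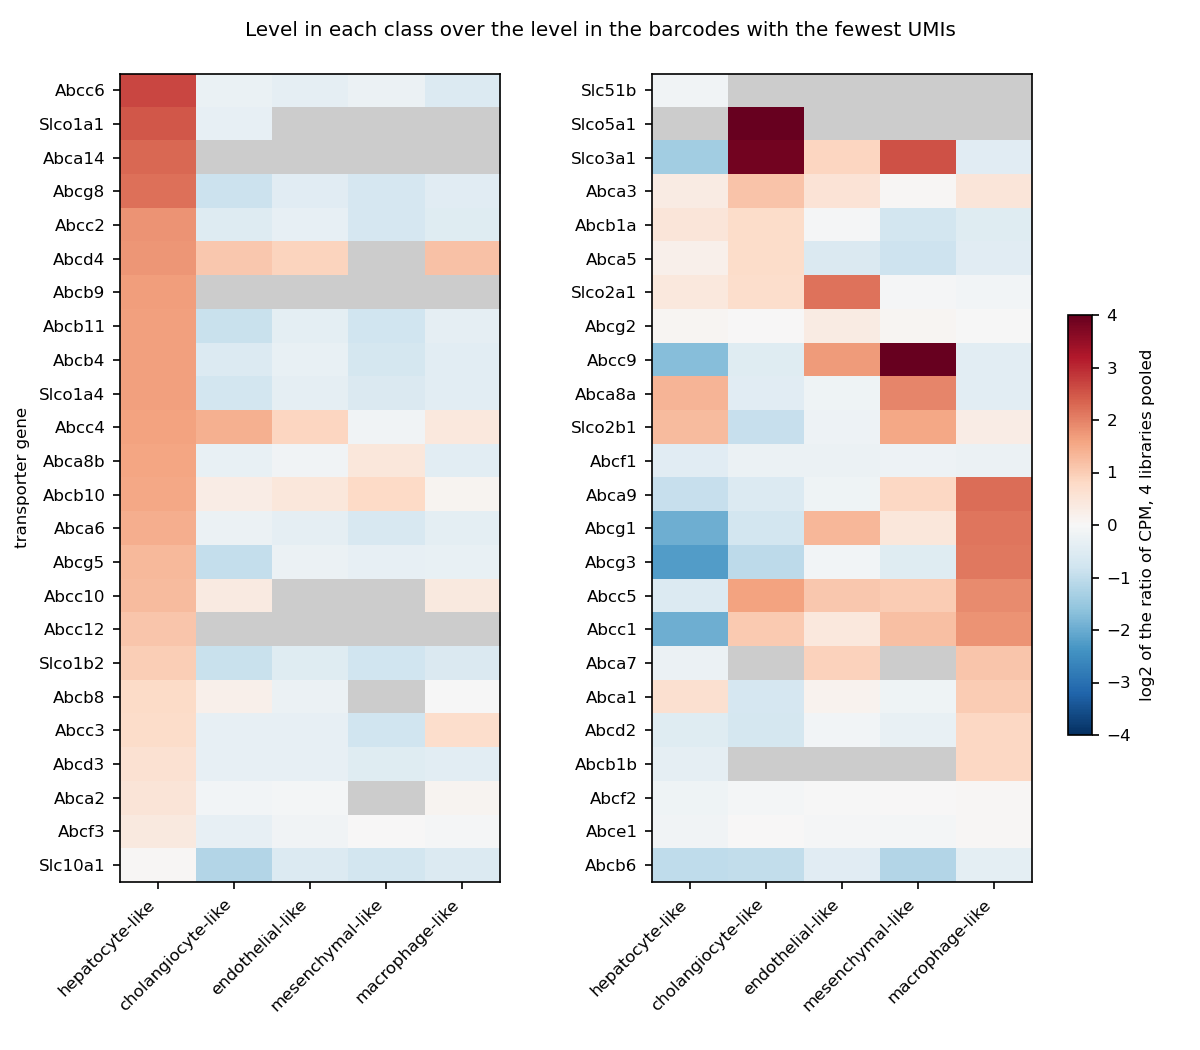
Each cell gives the log2 ratio of the pooled CPM of a gene (rows, 48 members with at least 50 UMIs in a class shown) in a class (columns) to its CPM in the barcodes with the fewest UMIs, with colours ending at 4 and grey where a class had under 50 UMIs. The upper block of the left panel is red in hepatocyte-like nuclei, while Slco3a1 stands out in cholangiocyte-like nuclei (14.6 times) and Abcc9 in mesenchymal-like nuclei (16.9 times).

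Of the uptake carriers 3 of 5 were raised in hepatocyte-like nuclei: Slco1a1, Slco1a4 and Slco2b1. Slco1b2, the mouse counterpart of the human liver carriers OATP1B1 and OATP1B3, had 1039 and 1814 CPM in the CKO libraries, against 1557 and 763 CPM in the WT libraries. Its pooled level was 1379 CPM over the 4 libraries, 1.99 times the level in the fewest-UMI barcodes, just under the limit of 2. The highest library was CKO replicate 2 and the lowest WT replicate 2, so the groups overlapped. Slco1a4, a carrier of organic anions and cardiac glycosides, had 269.6 and 152 CPM in the CKO libraries, against 304 and 248 CPM in the WT libraries, at 3.10 times the level in the fewest-UMI barcodes. The CKO replicate 2 library was the lowest of the 4. Slco1a1, a carrier known to be higher in livers of male mice, had 9.55 and 150.4 CPM in the CKO libraries, against 24.6 and 36.3 CPM in the WT libraries. The CKO libraries lay on either side of both WT libraries, 1 below and 1 above. In the fewest-UMI barcodes Slco1a1 had 0.390 and 58.1 CPM in the CKO libraries, against 4.68 and 5.51 CPM in the WT libraries, and the order of the libraries was the same there. Slco2b1, a carrier of sulfated steroids, had 67.3 and 135 CPM in the CKO libraries, against 91.9 and 93.6 CPM in the WT libraries. Slc10a1, the main bile acid uptake carrier, had 78.6 and 177 CPM in the CKO libraries, against 83.0 and 87.0 CPM in the WT libraries. In the fewest-UMI barcodes it had 80.8 and 209 CPM in the CKO libraries, against 88.1 and 90.3 CPM in the WT libraries. Its pooled level in hepatocyte-like nuclei was 1.04 times that of the fewest-UMI barcodes and did not stand out from it. CKO replicate 2 was the highest library in both.

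Canalicular exporters formed the group with the most raised members, 5 of 7. Abcc2, the pump for bilirubin conjugates and other conjugated anions, had 2003 and 1924 CPM in the CKO libraries, against 2321 and 1871 CPM in the WT libraries. The 4 libraries lay within a narrow range and overlapped, and the pooled level was 3.47 times that in the fewest-UMI barcodes. Abcb11 (chr2:69238282-69342616, build GRCm38) had 1555 and 386 CPM in the CKO libraries, against 959 and 671 CPM in the WT libraries. CKO replicate 1 was the highest and CKO replicate 2 the lowest library, with both WT libraries between them. Abcb11 stood at 4.23 and 1.52 times the level in the fewest-UMI barcodes of the CKO libraries, against 3.78 and 3.39 times in WT. Abcb4, which moves phosphatidylcholine into bile, had 837 and 1056 CPM in the CKO libraries, against 1279.6 and 514 CPM in the WT libraries. Here the WT libraries lay on either side of both CKO libraries. Abcg8 had 52.1 and 98.6 CPM in the CKO libraries, against 155 and 86.5 CPM in the WT libraries, with CKO replicate 1 the lowest library. Its partner Abcg5 had 67.9 and 47.5 CPM in the CKO libraries, against 71.2 and 37.4 CPM in the WT libraries. The 2 genes overlap on chromosome 17 on opposite strands (Abcg5 chr17:84658234-84683011, - strand, and Abcg8 chr17:84676302-84700333, + strand, build GRCm38). Abcg2, which exports porphyrins and drugs, had 73.2 and 85.4 CPM in the CKO libraries, against 128 and 86.5 CPM in the WT libraries. At 1.06 times the fewest-UMI level, Abcg2 did not stand out from those barcodes. Abcb1a, a multidrug pump, had 33.0 and 12.5 CPM in the CKO libraries, against 52.7 and 12.6 CPM in the WT libraries, with replicate 1 of each group above replicate 2. Abcb1a has a close copy, Abcb1b, and the counting may split their UMIs.

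Of the 7 basolateral efflux carriers 2 were raised in hepatocyte-like nuclei. Abcc6, whose loss causes ectopic mineralization through low plasma pyrophosphate, had 214 and 311 CPM in the CKO libraries, against 262 and 228 CPM in the WT libraries. The groups overlapped, and the pooled level was 6.40 times that in the fewest-UMI barcodes. Abcc4, which returns bile acids and cyclic nucleotides to blood, had 425 and 14.8 CPM in the CKO libraries, against 208 and 175 CPM in the WT libraries. CKO replicate 1 was the highest library and CKO replicate 2 far below the other 3. The level of Abcc4 in CKO replicate 2 was also the lowest in the fewest-UMI barcodes, which had 77.6 and 6.46 CPM in the CKO libraries, against 75.6 and 57.3 CPM in the WT libraries. Abcc3, an efflux carrier of glucuronides, had 298 and 134 CPM in the CKO libraries, against 280.0 and 271 CPM in the WT libraries, at 1.65 times the fewest-UMI level. CKO replicate 2 was again the lowest. Abcc5 and Abcc1 lay below the fewest-UMI level, at 0.678 and 0.261 times it. Slc51b had 26 and 6 UMIs in the CKO libraries, against 43 and 13 UMIs in the WT libraries, and was at 0.903 times the fewest-UMI level. Its partner Slc51a had 6 UMIs in all hepatocyte-like nuclei and 15 in all kept barcodes. No level above that of the fewest-UMI barcodes was detectable at this depth.

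**Figure D2:**
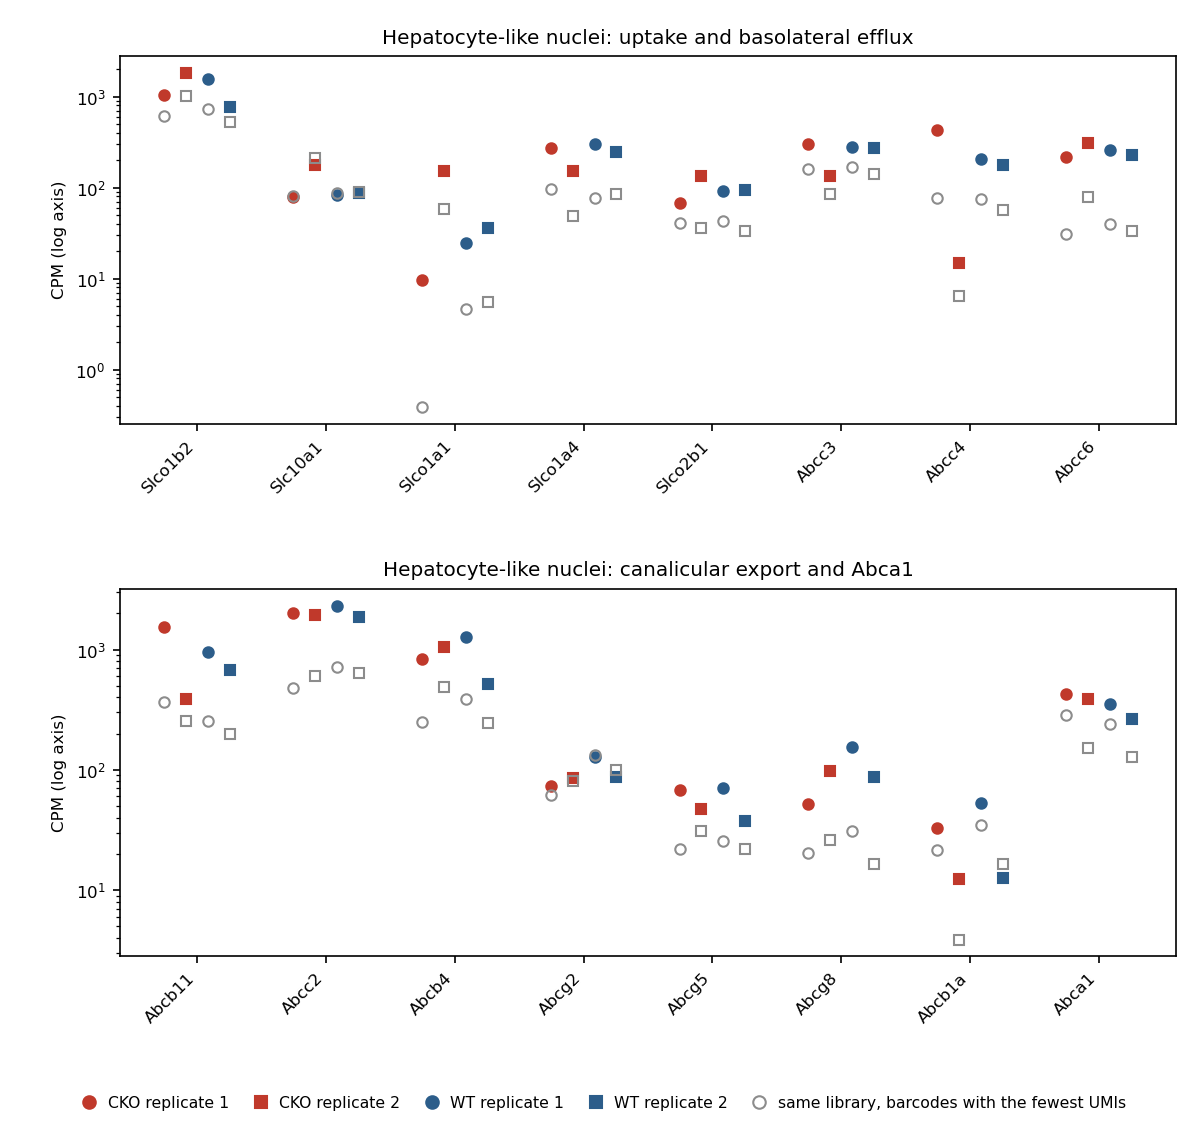
CPM on a log axis of 16 members in hepatocyte-like nuclei of each library (filled, CKO red and left, WT blue and right, circles replicate 1, squares replicate 2) and in the fewest-UMI barcodes of the same library (open grey). Abcc2 and Abcc6 lie well above the grey marks in all 4 libraries, Slc10a1 and Abcg2 lie on them, and Slco1a1, Abcc4 and Abcb11 differ most between the 2 CKO libraries.

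Among carriers of sterols and phospholipids none of 5 was raised in hepatocyte-like nuclei. Abca1, which loads cholesterol and phospholipid onto apolipoprotein A-I, had 424 and 385 CPM in the CKO libraries, against 352 and 267 CPM in the WT libraries, at 1.56 times the fewest-UMI level. Both CKO libraries lay above both WT libraries. Abca3, known for surfactant lipids of the lung, had 44.6 CPM over the 4 libraries, Abca2 15 CPM and Abca7 7.05 CPM. Abcg1, which passes cholesterol to high-density lipoprotein, had 7.17 CPM, 0.260 times the fewest-UMI level.

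A run of A subfamily genes on chromosome 11 was a further feature of hepatocyte-like nuclei. Abca6, Abca8a and Abca8b were raised, and their neighbours Abca5 and Abca9 were not. Abca6 (chr11:110176820-110251776, build GRCm38) had 265 and 425 CPM in the CKO libraries, against 522 and 336 CPM in the WT libraries. CKO replicate 1 was the lowest library. Abca8b (chr11:109932190-109995845) had 202 and 58.9 CPM in the CKO libraries, against 214 and 93.1 CPM in the WT libraries, with replicate 1 of each group above replicate 2. Abca8a (chr11:110025634-110095978) had 49.5 and 66.9 CPM in the CKO libraries, against 155 and 43.3 CPM in the WT libraries, and WT replicate 1 stood above the other 3. Abca8a and Abca8b are near copies of each other, so their UMIs may be split with less certainty. Abca5 had 28.0 CPM over the 4 libraries and Abca9 11.3 CPM, at 1.14 and 0.532 times the fewest-UMI level. Abca13 had 14 UMIs and Abca12 none.

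Among mitochondrial members, Abcb10, which takes part in heme synthesis, was raised, with 34.0 and 46.6 CPM in the CKO libraries, against 31.9 and 36.0 CPM in the WT libraries. Its libraries overlapped between groups. Abcb8 had 20.5 CPM over the 4 libraries. Abcb6, a porphyrin carrier, had 21.9 and 15.3 CPM in the CKO libraries, against 15.8 and 13.1 CPM in the WT libraries. Its pooled level was 0.496 times the fewest-UMI level. Of the organelle carriers, Abcd4, which exports vitamin B12 from lysosomes, was raised with 25.7 and 37.7 CPM in the CKO libraries, against 23.4 and 29.0 CPM in the WT libraries. Abcd3, which brings branched-chain fatty acids and bile acid precursors into peroxisomes, had 314 and 473 CPM in the CKO libraries, against 376 and 321 CPM in the WT libraries, at 1.51 times the fewest-UMI level. Abcd2, a carrier of very long-chain fatty acids, lay at 0.708 times it. The ribosome-associated Abce1, Abcf1, Abcf2 and Abcf3 lay between 0.734 and 1.32 times it in hepatocyte-like nuclei and were raised in no class.

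Of the remaining members Abcb9, a lysosomal peptide carrier, was raised with 5.97 and 8.54 CPM in the CKO libraries, against 3.58 and 6.08 CPM in the WT libraries. Abcc10, a multidrug resistance protein, had 13.3 and 18.2 CPM in the CKO libraries, against 15.4 and 12.9 CPM in the WT libraries. The libraries of both genes overlapped between groups. Abcc12 had 3.98 and 0.534 CPM in the CKO libraries, against 22.0 and 4.91 CPM in the WT libraries, with WT replicate 1 far above the rest, and Abcc12 was not raised without WT replicate 1 or without CKO replicate 1. Abca14 rested on 55 UMIs in all, and was not raised without CKO replicate 1 or without WT replicate 1. Of the Slco genes outside the uptake group, Slco2a1 had 58.7 CPM and Slco3a1 36.8 CPM over the 4 libraries in hepatocyte-like nuclei, at 1.34 and 0.384 times the fewest-UMI level. The other 8 had at most 19 UMIs there.

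Cholangiocyte-like nuclei had 7 raised members: Abca3, Abcc1, Abcc4, Abcc5, Abcd4, Slco3a1 and Slco5a1. Slco3a1 (chr7:74275419-74554780, build GRCm38), a broadly expressed organic anion carrier, had 1673 and 494 CPM in the CKO libraries, against 1354 and 1196 CPM in the WT libraries. The lowest library, CKO replicate 2, held 46 of these nuclei and 49 Slco3a1 UMIs. In the fewest-UMI barcodes Slco3a1 had 99.9 and 25.8 CPM in the CKO libraries, against 125 and 59.5 CPM in the WT libraries. Each library stood at 10.8 times or more the level in its own fewest-UMI barcodes. In CKO replicate 2 the level was close to that of mesenchymal-like nuclei, and the other 3 libraries were highest in cholangiocyte-like nuclei. Slco5a1 had 9 and 0 UMIs in the CKO libraries, against 42 and 4 UMIs in the WT libraries, while the fewest-UMI barcodes of all 4 libraries together held 1. A count of 0 in CKO replicate 2 says little, since its cholangiocyte-like nuclei are few, and Slco5a1 was not raised without CKO replicate 1 or without WT replicate 1. Abcc4 was raised here too, with 156 and 10.1 CPM in the CKO libraries, against 188 and 158 CPM in the WT libraries. As in hepatocyte-like nuclei, CKO replicate 2 was the lowest, here with 1 UMI. Abcc5, an efflux carrier of cyclic nucleotides, had 97.8 and 101 CPM in the CKO libraries, against 106 and 71.2 CPM in the WT libraries. Abca3 had 72.6 and 101 CPM in the CKO libraries, against 80.0 and 69.8 CPM in the WT libraries. Abcc1, an efflux carrier of glutathione conjugates, had 73.3 and 20.2 CPM in the CKO libraries, against 49.6 and 46.5 CPM in the WT libraries. Abcc5 and Abca3 showed like levels in the 4 libraries, and Abcc1 was lowest in CKO replicate 2, on 2 UMIs. Abcd4 was raised at 2.09 times the fewest-UMI level. The call was lost for Abca3 without CKO replicate 1, for Abcc1 without CKO replicate 2 or WT replicate 2, and for Abcd4 without CKO replicate 2 or WT replicate 1. The canalicular exporters and the uptake carriers of hepatocytes were not raised in cholangiocyte-like nuclei, where Abcb11, Abcb4, Abcc2 and Slco1b2 lay at 0.534, 0.689, 0.705 and 0.543 times the fewest-UMI level. Abcg2 lay at 1.02 times and Abcc3 at 0.793 times it.

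The cholangiocyte-like nuclei fell in a larger and a smaller cluster of 1930 and 377 nuclei, which differed in several members. The smaller cluster showed 11 of 16 cholangiocyte markers, with Sox9 and Tm4sf4 but without Krt7, Krt19, Epcam and Muc1. In the larger cluster these 4 were raised, and Sox9 and Tm4sf4 were not. The median was 3455 UMIs per nucleus in the smaller and 2623.5 in the larger cluster. In the smaller cluster Abca6 had 168 CPM in CKO replicate 1, against 303 and 398 CPM in the WT libraries, and CKO replicate 2 had under 20 nuclei there and gives no value. In the larger cluster Abca6 had 77.5 CPM in CKO replicate 1, against 101 and 58.2 CPM in the WT libraries. The smaller cluster was higher in each of these 3 libraries and above the fewest-UMI level of Abca6, which was 140.4 CPM in CKO replicate 1, against 165 and 123 CPM in the WT libraries. Abcc1 ran the other way, with 40.0 CPM in CKO replicate 1, against 28.4 and 21.7 CPM in the WT libraries in the smaller cluster. In the larger cluster Abcc1 had 83.7 CPM in CKO replicate 1, against 54.8 and 52.7 CPM in the WT libraries. Slco3a1 was high in both clusters, with 1059 CPM in the smaller and 1865 CPM in the larger cluster of CKO replicate 1. The smaller cluster held 19.9% and 34.8% of the cholangiocyte-like nuclei of the CKO libraries, against 14.7% and 15.3% of those of the WT libraries. These differences between clusters are descriptions without a test.

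Mesenchymal-like nuclei were marked by Abcc9, the sulfonylurea receptor subunit of potassium channels in smooth muscle and pericytes. Abcc9 (chr6:142587862-142702315, build GRCm38) had 542 and 244 CPM in the CKO libraries, against 487 and 271 CPM in the WT libraries. Replicate 1 stood above replicate 2 in both groups, and the fewest-UMI barcodes had 38.6 and 18.1 CPM in the CKO libraries, against 24.2 and 14.3 CPM in the WT libraries. Slco3a1 had 502 and 505 CPM in the CKO libraries, against 613 and 442 CPM in the WT libraries, a level shared by the 4 libraries. Slco2b1 had 95.2 and 170.2 CPM in the CKO libraries, against 122 and 119 CPM in the WT libraries. Abca8a had 88.5 and 56.7 CPM in the CKO libraries, against 186 and 133 CPM in the WT libraries, with both CKO libraries below both WT libraries. Abcc1 and Abcc5 were raised at 2.29 and 2.02 times the fewest-UMI level. Abcc5 was at the limit, and was not raised without CKO replicate 2, without WT replicate 1, without WT replicate 2, with doublets kept or at Leiden resolution 2.

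Endothelial-like nuclei were marked by Slco2a1, the prostaglandin uptake carrier, which had 169 and 131 CPM in the CKO libraries, against 230.2 and 138 CPM in the WT libraries. In the fewest-UMI barcodes Slco2a1 had 48.8 and 36.2 CPM in the CKO libraries, against 48.0 and 24.2 CPM in the WT libraries. The libraries of the 2 groups overlapped. Abcc9 was raised here as well, with 87.4 and 40.1 CPM in the CKO libraries, against 99.2 and 73.4 CPM in the WT libraries. Abcg1 had 71.0 and 58.4 CPM in the CKO libraries, against 72.3 and 55.1 CPM in the WT libraries. Abcc5 had 54.6 and 43.8 CPM in the CKO libraries, against 82.9 and 71.1 CPM in the WT libraries, and both CKO libraries lay below both WT libraries. It was not raised without CKO replicate 2 or without WT replicate 1. Slco2a1 was raised also in the 100 mesothelial-like nuclei, on 56 UMIs, at 214 CPM. Of members under 50 UMIs there, Abcb1b, with 27 UMIs, had 103 CPM against 4.55 CPM in the fewest-UMI barcodes.

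Macrophage-like nuclei had 8 raised members. Abcg3 had 216 and 202 CPM in the CKO libraries, against 405 and 327 CPM in the WT libraries, and the fewest-UMI barcodes had 78.8 and 15.5 CPM in the CKO libraries, against 97.9 and 47.4 CPM in the WT libraries. Both CKO libraries lay below both WT libraries. Abca9 had 53.0 and 88.5 CPM in the CKO libraries, against 137 and 113 CPM in the WT libraries, with the same order of groups. Abcg1 had 125 and 79.0 CPM in the CKO libraries, against 127 and 93.6 CPM in the WT libraries. Abca1 had 434 and 294 CPM in the CKO libraries, against 502 and 385 CPM in the WT libraries, at 2.0 times the fewest-UMI level and so at the limit, and it was not raised with doublets kept, without CKO replicate 2, without WT replicate 1 or without WT replicate 2. The libraries of Abcg1 and of Abca1 overlapped between groups. Abcc1 had 102 and 75.9 CPM in the CKO libraries, against 84.8 and 61.5 CPM in the WT libraries. Abcc5 had 117 and 79.0 CPM in the CKO libraries, against 131 and 112 CPM in the WT libraries, while Abca7 and Abcd4 were raised at 2.17 and 2.27 times the fewest-UMI level, Abcd4 not without WT replicate 1. Dendritic-like nuclei, 381 in all, shared Slco3a1 with cholangiocyte-like and mesenchymal-like nuclei, at 265 CPM over the 4 libraries, and Abcg1 with macrophage-like and endothelial-like nuclei, at 70.0 CPM.

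**Figure D3:**
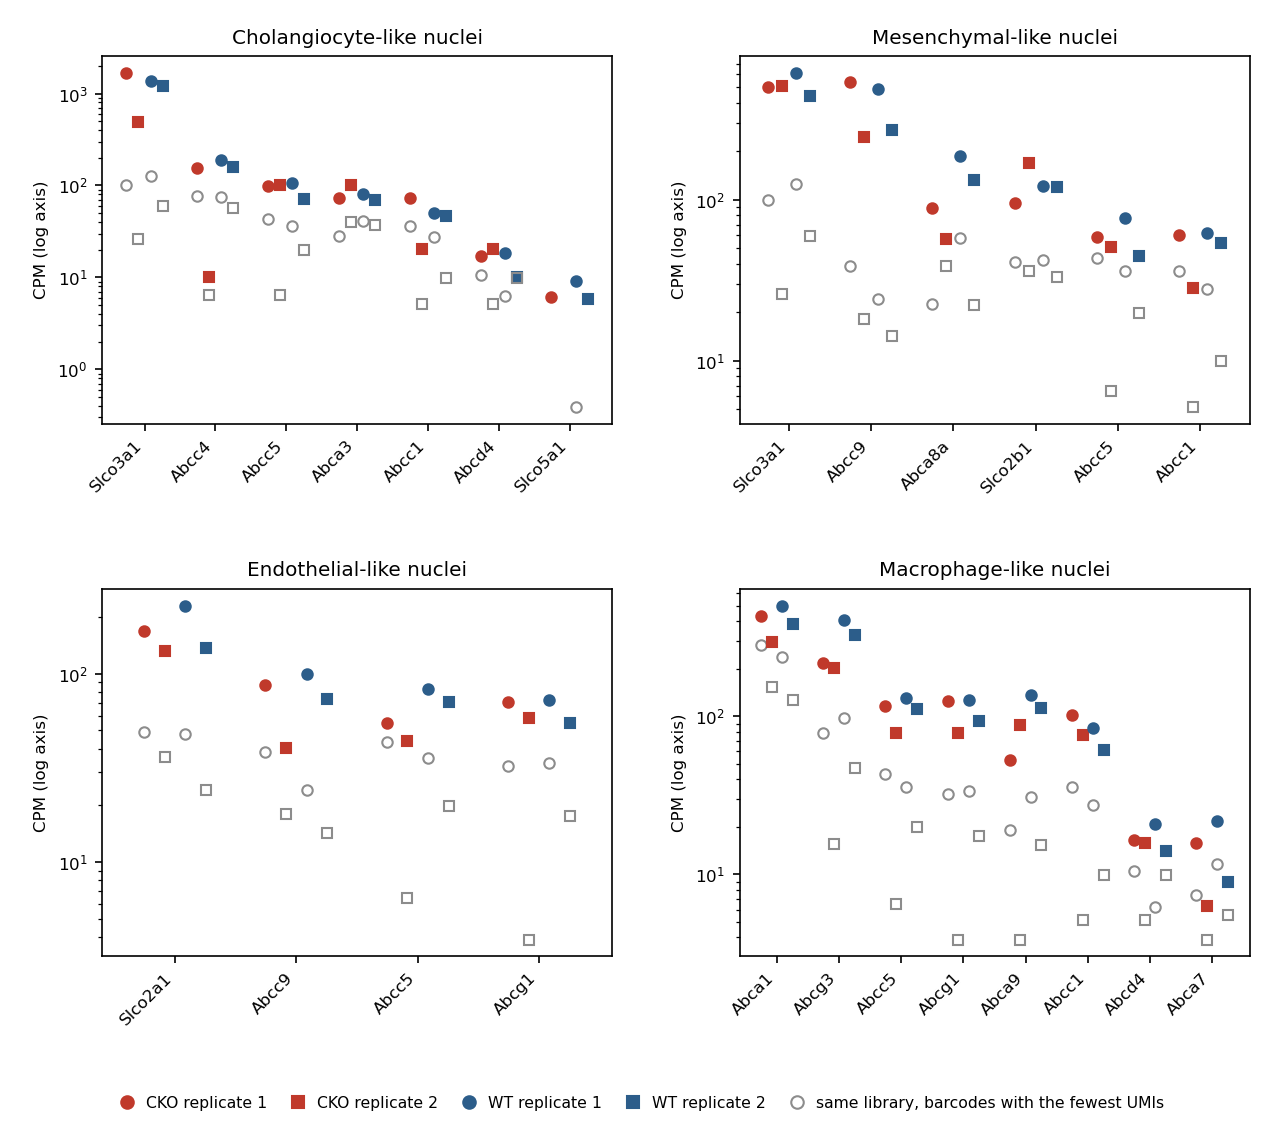
CPM on a log axis of the members raised in 4 classes, by library (filled, CKO red and left, WT blue and right, circles replicate 1, squares replicate 2), with the fewest-UMI barcodes of the same library in open grey; a value of 0 is not drawn. Slco3a1 lies far above its grey marks in cholangiocyte-like and mesenchymal-like nuclei of all 4 libraries, and Abcg3 and Abca9 in macrophage-like nuclei are lower in both CKO libraries than in both WT libraries.

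The series asks how deletion of Rbpj in hepatic progenitor cells alters the DDC-fed liver. To compare the groups for the transporters, UMIs of each class were summed per library, scaled between libraries and tested over all genes by the edgeR quasi-likelihood test with Benjamini-Hochberg adjustment, with 2 CKO against 2 WT libraries. In no class did a member pass an adjusted p of 0.05, nor did any other gene: the background was 0% of 13375 genes tested in hepatocyte-like, 10484 in cholangiocyte-like, 10038 in endothelial-like, 8648 in mesenchymal-like and 12219 in macrophage-like nuclei. DESeq2 called 2, 0, 2, 1 and 4 genes in these classes, in the same order, none of them a member. The test covered 49 members in hepatocyte-like, 42 in cholangiocyte-like, 42 in endothelial-like, 37 in mesenchymal-like and 46 in macrophage-like nuclei, since the rest had too few UMIs. At an unadjusted p under 0.05 the member counts in the same order were 1, 2, 2, 3 and 5. Over all genes the shares at that level were 1.71% in hepatocyte-like, 4.96% in cholangiocyte-like, 5.15% in endothelial-like, 7.44% in mesenchymal-like and 5.38% in macrophage-like nuclei, or 229, 520, 517, 643 and 657 genes in the same order. The member shares lay near these, except in macrophage-like nuclei with 5 of 46 members. These were Abcb11, Abcg3, Abca9, Abcc12 and Slc10a1, and of them only Abcg3 and Abca9 were raised in that class. The median log2 change of the tested members was 0.16, 0.14, 0.08, 0.19 and 0.15, in the same order, beside 0.01, -0.02, 0.01, 0.01 and 0.00 over all genes tested.

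In hepatocyte-like nuclei 28 of 49 tested members had a positive log2 change and 21 a negative one. Both CKO libraries lay above both WT libraries for 6 members, against a background of 12.5% of all genes tested, and below for 3 members, against 13.1%. Those above included Abca1, Abcb6, Slco2a1, Abcf2 and Abcb1b, and those below were Abcc12, Slco3a1 and Abcc5. No uptake carrier and no canalicular exporter was among them. Abca1 had 412 and 421 scaled CPM in the CKO libraries, against 324 and 277 scaled CPM in the WT libraries (log2 0.47, SE 0.22, unadjusted p = 0.0950, adjusted p = 1.0 by the edgeR test). Abcb6 had 21.3 and 16.7 scaled CPM in the CKO libraries, against 14.6 and 13.6 scaled CPM in the WT libraries (log2 0.43, SE 0.26, unadjusted p = 0.168, adjusted p = 1.0 by the edgeR test). For both genes the CKO libraries did not overlap the WT libraries, but the change did not pass the test. In the fewest-UMI barcodes Abcb6 showed the same order, with 36.3 and 34.9 CPM in CKO, against 33.9 and 20.9 CPM in WT. The groups of Abca1 overlapped there, with 284 and 152 CPM in CKO, against 239 and 127 CPM in WT. Abcc12 had 3.86 and 0.583 scaled CPM in the CKO libraries, against 20.2 and 5.10 scaled CPM in the WT libraries (log2 -2.53 with SE 1.06 in the edgeR fit), on 20 and 3 UMIs in CKO, against 233 and 21 UMIs in WT. Both CKO libraries lay below both WT libraries, which differed widely from each other. The order of groups was the same in the fewest-UMI barcodes, where Abcc12 had 2.34 and 0 CPM in CKO, against 9.36 and 4.41 CPM in WT. The log2 change of Abcc12 in hepatocyte-like nuclei was -1.19 without WT replicate 1 and -4.48 without CKO replicate 1. Slco3a1 had 33.4 and 22.7 scaled CPM in the CKO libraries, against 44.2 and 33.8 scaled CPM in the WT libraries (log2 -0.48 with SE 0.29 in the edgeR fit), far under its level in cholangiocyte-like nuclei.

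Several liver carriers differed more within the CKO group than between the groups. Slco1a1 had 9.27 and 164 scaled CPM in the CKO libraries, against 22.7 and 37.7 scaled CPM in the WT libraries (log2 1.54 with SE 1.24 in the edgeR fit). Without CKO replicate 1 its log2 change was 2.49, and without CKO replicate 2 it was -1.68. Abcc4 had 412 and 16.1 scaled CPM in the CKO libraries, against 191 and 182 scaled CPM in the WT libraries (log2 0.20 with SE 1.31 in the edgeR fit), with a log2 change of -3.52 without CKO replicate 1 and of 1.14 without CKO replicate 2. Abcb11 had 1510.2 and 421 scaled CPM in the CKO libraries, against 883 and 697 scaled CPM in the WT libraries (log2 0.29 with SE 0.65 in the edgeR fit), with -0.90 and 0.93 when CKO replicate 1 or CKO replicate 2 was left out. Slc10a1 had 76.3 and 194 scaled CPM in the CKO libraries, against 76.4 and 90.4 scaled CPM in the WT libraries (log2 0.70 with SE 0.48 in the edgeR fit), and the excess lay in CKO replicate 2 alone. The direction of these 4 genes therefore rests on 1 CKO library, and no direction is given for them. Abcc2 showed the contrary picture, with 1945 and 2102 scaled CPM in the CKO libraries, against 2137 and 1945 scaled CPM in the WT libraries and a log2 change of -0.01 (SE 0.32). In the same nuclei, of 8 tested genes known to be higher in male livers, CKO replicate 1 lay below both WT libraries for 8 and CKO replicate 2 above both for 8. Of 6 tested genes known to be higher in female livers, CKO replicate 1 lay above both WT libraries for 4 and CKO replicate 2 for 1. All 4 livers are labelled male, and the part of this difference in the values of Slco1a1, Abcc4, Abcb11 and Slc10a1 was not tested.

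**Figure D4:**
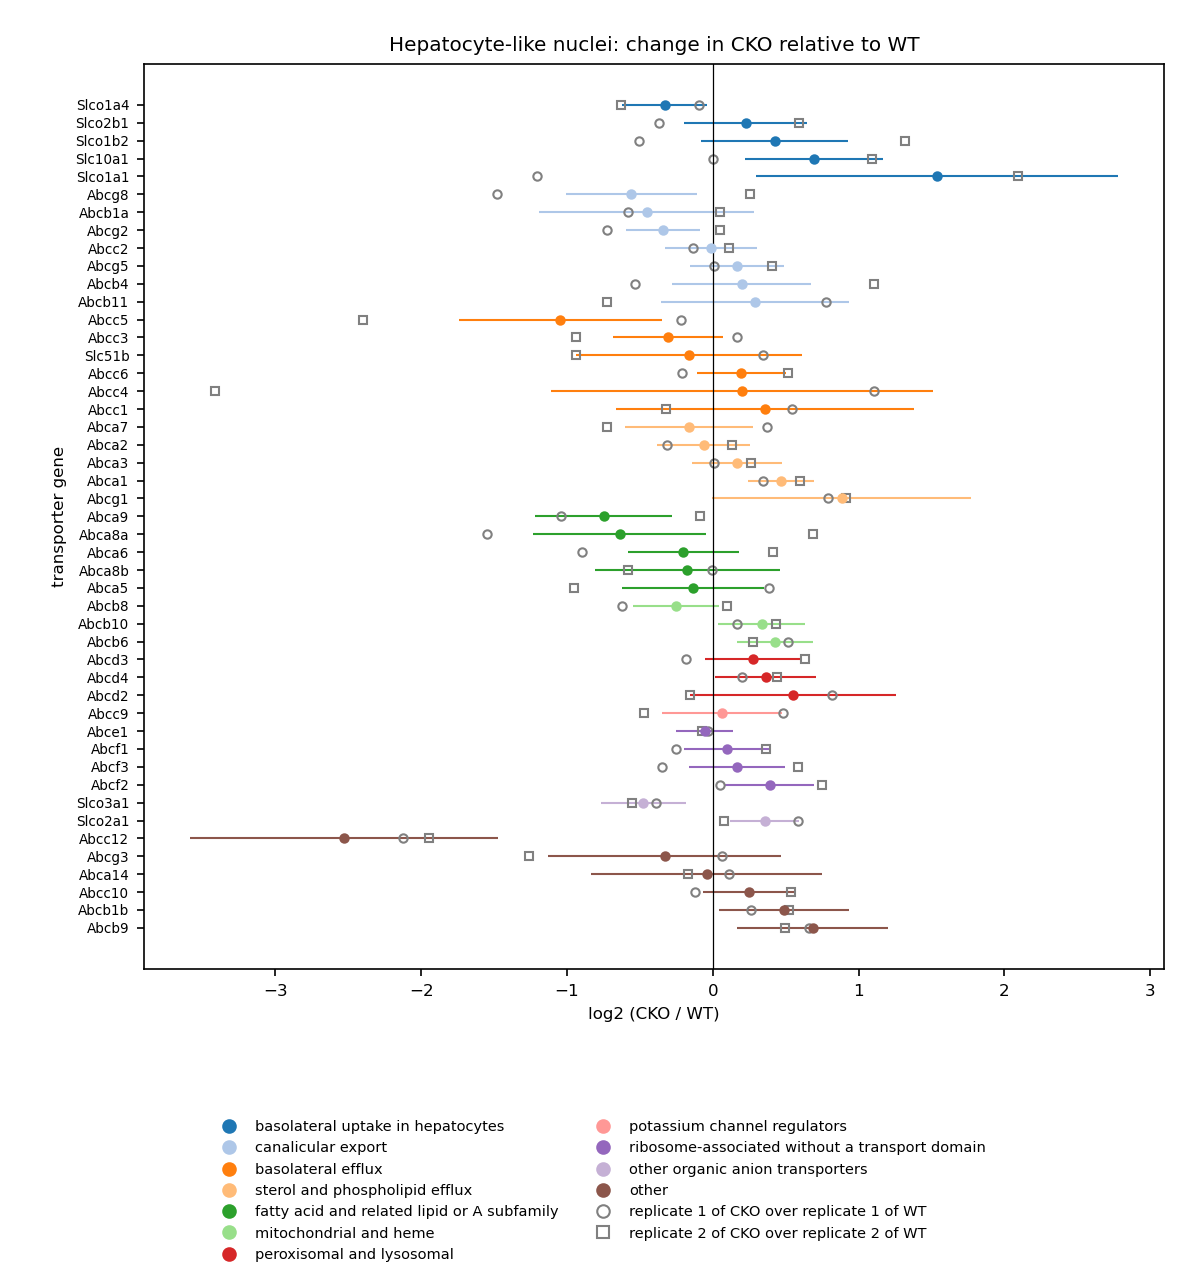
log2 change of CKO over WT (filled, coloured by role) for 47 of the 49 members tested in hepatocyte-like nuclei. Bars give 1 SE, derived from the F statistic of the edgeR test. Open circles give the log2 ratio of replicate 1 of CKO to replicate 1 of WT, and open squares that of replicate 2 to replicate 2. For Slco1a1, Abcc4 and Abcb11 the open marks lie on opposite sides of 0, and for Abcc2 all marks lie close to 0. The labels do not pair libraries by replicate number. The CKO libraries of Slco1a1, Abcc4 and Abcb11 lay on either side of both WT libraries.

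The genes that surround the carriers in bile acid handling, from synthesis to sensing, were read beside them. Of 41 such genes 39 were tested in hepatocyte-like nuclei, 0 passed the adjusted test, 29 had a positive and 10 a negative log2 change, and the median was 0.22. Both CKO libraries lay above both WT libraries for 10 of the 39 and below for 1, beside the 12.5% and 13.1% of all genes tested. The scaffold protein Slc9a3r1, which anchors transporters at the apical membrane, had 75.7 and 71.2 scaled CPM in the CKO libraries, against 40.2 and 48.9 scaled CPM in the WT libraries (log2 0.72 with SE 0.20 in the edgeR fit). The bile acid ligase Slc27a5 had 91.8 and 131 scaled CPM in the CKO libraries, against 67.7 and 56.4 scaled CPM in the WT libraries (log2 0.84 with SE 0.26 in the edgeR fit). The CKO libraries of both genes lay above the WT libraries. The bile acid synthesis enzyme Hsd3b7 had 71.9 and 73.1 scaled CPM in the CKO libraries, against 47.6 and 51.5 scaled CPM in the WT libraries (log2 0.55 with SE 0.18 in the edgeR fit), and the peptide carrier subunit Tap2, itself an ABC protein under another name, had 12.2 and 15.9 scaled CPM in the CKO libraries, against 8.25 and 9.48 scaled CPM in the WT libraries (log2 0.67 with SE 0.30 in the edgeR fit). These 4 were among the 5 lowest in p of this list, and each had an adjusted p of 1.0 by the edgeR test. Of 15 genes known to be high near the central vein, 13 had a positive log2 change with a median of 0.91 and 0 passed, with both CKO libraries above both WT libraries for 10 (12.5% of all genes tested). The median of the tested genes of this list was also 0.84 in cholangiocyte-like, 0.83 in endothelial-like, 0.86 in mesenchymal-like and 0.80 in macrophage-like nuclei. Oat, an ornithine aminotransferase, had 55.6 and 29.9 scaled CPM in the CKO libraries, against 11.3 and 12.2 scaled CPM in the WT libraries (log2 1.87 with SE 0.37 in the edgeR fit), and Rgn had 117 and 183 scaled CPM in the CKO libraries, against 68.4 and 63.0 scaled CPM in the WT libraries (log2 1.19 with SE 0.28 in the edgeR fit). Tbx3 had 46.0 and 50.7 scaled CPM in the CKO libraries, against 22.4 and 29.4 scaled CPM in the WT libraries and Gulo, which makes ascorbate, 118 and 149.7 scaled CPM in the CKO libraries, against 81.1 and 76.3 scaled CPM in the WT libraries. Axin2, a target of Wnt signalling, had 18.0 and 14.2 scaled CPM in the CKO libraries, against 8.60 and 7.54 scaled CPM in the WT libraries. Of 14 genes known to be high near the portal tract, 5 had a positive and 9 a negative log2 change, with a median of -0.18, against medians of 0.50, 0.66, 0.64 and 0.41 in cholangiocyte-like, endothelial-like, mesenchymal-like and macrophage-like nuclei. Both CKO libraries lay below both WT libraries for 5 of them (13.1% of all genes tested), and Sdsl, with the smallest p of the list, had 10.6 and 9.72 scaled CPM in the CKO libraries, against 12.8 and 26.5 scaled CPM in the WT libraries (log2 -0.93 with SE 0.43 in the edgeR fit). The part of either list in the transporter values was not tested.

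In cholangiocyte-like nuclei 24 of 42 tested members had a positive and 18 a negative log2 change. For 9 members (background 13.6%) both CKO libraries lay above both WT libraries, and for 4 (background 19%) below. The smallest p belonged to Abcb11, with 233 and 203 scaled CPM in the CKO libraries, against 124 and 127 scaled CPM in the WT libraries (log2 0.84, SE 0.23, unadjusted p = 0.00618, adjusted p = 0.833 by the edgeR test). Abca1 followed with 184 and 171 scaled CPM in the CKO libraries, against 128 and 113 scaled CPM in the WT libraries (log2 0.57, SE 0.23, unadjusted p = 0.0388, adjusted p = 0.998 by the edgeR test). Slco1a4 had 60.9 and 53.5 scaled CPM in the CKO libraries, against 43.2 and 47.6 scaled CPM in the WT libraries (log2 0.42 with SE 0.25 in the edgeR fit). All 3 genes were at or below the fewest-UMI level in this class, at 0.534, 0.631 and 0.604 times it. Abcg1 had 40 and 0 UMIs in the CKO libraries, against 66 and 7 UMIs in the WT libraries (log2 0.96 with SE 0.47 in the edgeR fit), and its CKO libraries lay on either side of the WT libraries. Abcf3 had 6.23 and 21.4 scaled CPM in the CKO libraries, against 14.5 and 25.4 scaled CPM in the WT libraries (log2 -1.21 with SE 0.59 in the edgeR fit), and the sign turned without CKO replicate 1. Slco3a1 had 1707 and 525 scaled CPM in the CKO libraries, against 1235 and 1306 scaled CPM in the WT libraries (log2 -0.14 with SE 0.48 in the edgeR fit), and the CKO libraries lay on either side of the WT libraries. The 46 nuclei of CKO replicate 2 limit every comparison in this class.

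Abcb11 had a small unadjusted p also in other classes that are not hepatocytes. It had 276 and 258 scaled CPM in the CKO libraries, against 166 and 134 scaled CPM in the WT libraries in endothelial-like nuclei (log2 0.82, SE 0.26, unadjusted p = 0.0117, adjusted p = 0.895 by the edgeR test). In mesenchymal-like nuclei Abcb11 had 257 and 165 scaled CPM in the CKO libraries, against 116 and 147 scaled CPM in the WT libraries (log2 0.77, SE 0.30, unadjusted p = 0.0273, adjusted p = 0.603 by the edgeR test). In macrophage-like nuclei it had 286 and 203 scaled CPM in the CKO libraries, against 160.4 and 149 scaled CPM in the WT libraries (log2 0.69, SE 0.25, unadjusted p = 0.0243, adjusted p = 0.898 by the edgeR test). In all 4 classes both CKO libraries lay above both WT libraries on this scale. Without CKO replicate 1 the log2 change of Abcb11 was 0.34 in mesenchymal-like and 0.38 in macrophage-like nuclei. The fewest-UMI barcodes held Abcb11 at 367 and 254 CPM in the CKO libraries, against 253 and 198 CPM in the WT libraries, and the pooled level of Abcb11 in cholangiocyte-like, endothelial-like, mesenchymal-like and macrophage-like nuclei was 0.534, 0.755, 0.570 and 0.778 times that of the fewest-UMI barcodes. The 15 hepatocyte markers, none of them at 0, summed to 42103 and 32809 CPM in the macrophage-like nuclei of the CKO libraries, against 26089 and 27021 CPM in WT. In endothelial-like nuclei they summed to 44022 and 34798 CPM in CKO, against 27705 and 27310 CPM in WT, and in cholangiocyte-like nuclei to 32164 and 27657 CPM in CKO, against 20532 and 21737 CPM in WT. In mesenchymal-like nuclei they summed to 37045 and 29369 CPM in CKO, against 22434 and 23467 CPM in WT. Hepatocyte marker RNA was higher in both CKO than in both WT libraries in each of these classes and in the fewest-UMI barcodes, and in endothelial-like and macrophage-like nuclei of both CKO libraries it was above the sums in hepatocyte-like nuclei, and its part in the Abcb11 values was not tested. Slc10a1, likewise under its fewest-UMI level in these classes, had 78.9 and 146 scaled CPM in the CKO libraries, against 49.9 and 51.2 scaled CPM in the WT libraries in endothelial-like nuclei (log2 1.03, SE 0.33, unadjusted p = 0.0129, adjusted p = 0.920 by the edgeR test) and 75.6 and 141 scaled CPM in the CKO libraries, against 50.9 and 68.4 scaled CPM in the WT libraries in macrophage-like nuclei (log2 0.76, SE 0.33, unadjusted p = 0.0464, adjusted p = 0.917 by the edgeR test). Slco1b2 had 405 and 763 scaled CPM in the CKO libraries, against 363 and 339 scaled CPM in the WT libraries in mesenchymal-like nuclei (log2 0.70 with SE 0.35 in the edgeR fit). For both genes CKO replicate 2 was the highest library, as it was in the fewest-UMI barcodes. Without it the log2 change was 0.66 for Slc10a1 in endothelial-like nuclei, 0.43 for Slc10a1 in macrophage-like nuclei and 0.21 for Slco1b2 in mesenchymal-like nuclei.

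**Figure D5:**
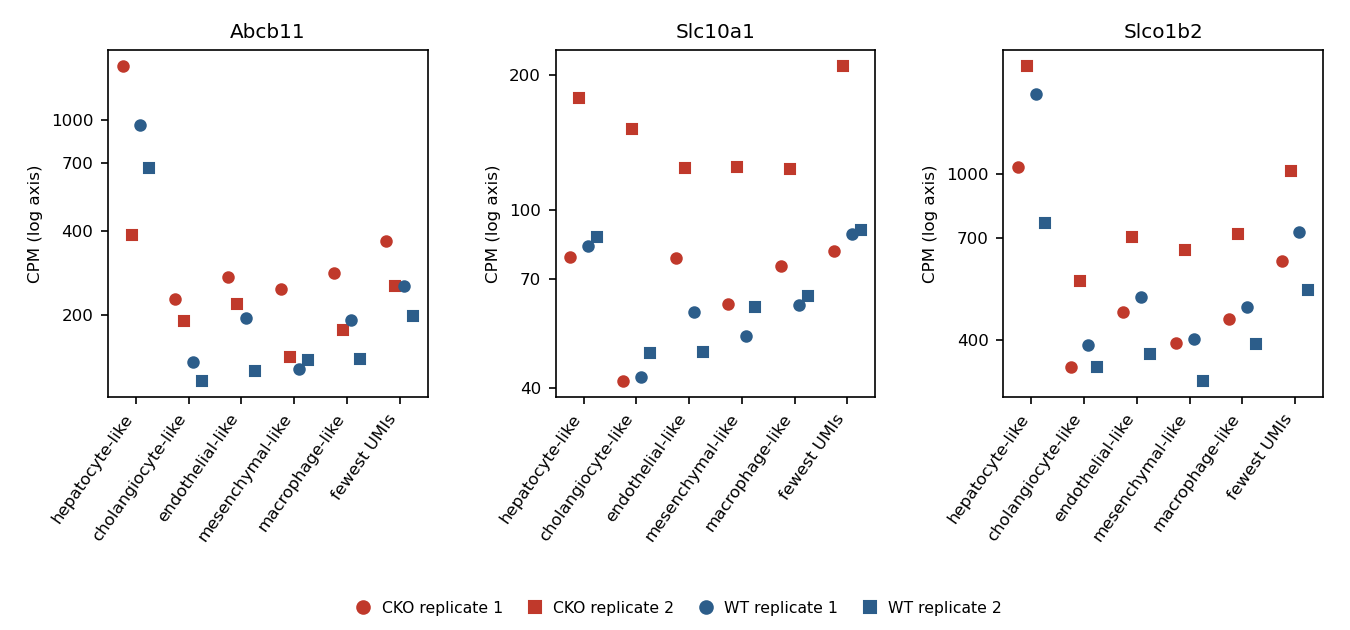
CPM on a log axis of Abcb11, Slc10a1 and Slco1b2 by class and library, with the fewest-UMI barcodes at the right of each panel (CKO red and left, WT blue and right, circles replicate 1, squares replicate 2). In the 4 other classes the values of Abcb11 and Slco1b2 lie at or below those of the fewest-UMI barcodes of the same library, and CKO replicate 2 is the highest library for Slc10a1 in every class shown.

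In mesenchymal-like nuclei 22 of 37 tested members had a positive and 15 a negative log2 change. For 8 (background 17.1%) both CKO libraries lay above both WT libraries, and for 2 (background 19.7%), Abca8a and Abca8b, below. Abca8a had 91.4 and 65.8 scaled CPM in the CKO libraries, against 168 and 142 scaled CPM in the WT libraries (log2 -0.90, SE 0.27, unadjusted p = 0.00751, adjusted p = 0.490 by the edgeR test), the smallest adjusted p of any member in any class. Abca9 had 16.9 and 32.9 scaled CPM in the CKO libraries, against 46.6 and 32.4 scaled CPM in the WT libraries (log2 -1.10, SE 0.41, unadjusted p = 0.0231, adjusted p = 0.587 by the edgeR test). The libraries of Abca9 overlapped by a small margin, and its log2 change was -0.40 without CKO replicate 1 and -0.62 without WT replicate 1. When clusters were made finer, mesenchymal-like nuclei fell in a larger cluster, a smaller one and another of few nuclei, and the smaller one held 18.9% and 6.59% of these nuclei in CKO, against 40.9% and 40.3% in WT. In the larger of these clusters Abca8a had 70.9 and 49.2 CPM in the CKO libraries (59 and 8 UMIs), against 125 and 146 CPM in the WT libraries (142 and 33 UMIs). In the smaller it had 161 and 147 CPM in CKO (33 and 2 UMIs), against 268 and 119.6 CPM in WT (228 and 24 UMIs). The CKO libraries lay below the WT libraries in the larger cluster and overlapped them in the smaller one. Abca9 had 16.8 and 24.6 CPM in CKO (14 and 4 UMIs), against 34.3 and 17.7 CPM in WT (39 and 4 UMIs) in the larger cluster. In the smaller it had 14.6 and 73.7 CPM in CKO (3 and 1 UMIs), against 75.2 and 44.8 CPM in WT (64 and 9 UMIs). Abcc9 had 559 and 283 scaled CPM in the CKO libraries, against 439 and 289 scaled CPM in the WT libraries (log2 0.24 with SE 0.37 in the edgeR fit), with overlapping groups. In the larger of the finer clusters Abcc9 had 653 and 264 CPM in CKO, against 700 and 452 CPM in WT. In the smaller it had 87.8 and 0 CPM in CKO, against 202 and 69.7 CPM in WT. The part of the cluster shares in the value of the class was not tested. Abca1 in mesenchymal-like nuclei had 264 and 191 scaled CPM in the CKO libraries, against 178 and 135 scaled CPM in the WT libraries (log2 0.56 with SE 0.29 in the edgeR fit), at 0.884 times its fewest-UMI level.

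In macrophage-like nuclei 33 of 46 tested members had a positive and 13 a negative log2 change. For 11 members (background 15.4%) both CKO libraries lay above both WT libraries, and for 6 (background 18.2%) below. Abcg3 had 219 and 231 scaled CPM in the CKO libraries, against 337 and 349 scaled CPM in the WT libraries (log2 -0.61, SE 0.24, unadjusted p = 0.0297, adjusted p = 0.898 by the edgeR test). Abca9 had 53.6 and 101 scaled CPM in the CKO libraries, against 114 and 120.4 scaled CPM in the WT libraries (log2 -0.78, SE 0.31, unadjusted p = 0.0335, adjusted p = 0.904 by the edgeR test). For both, each CKO library lay below each WT library, and neither passed the adjusted test. The log2 change of Abca9 was -0.20 without CKO replicate 1. The clusters differ between libraries here: nearly all nuclei of CKO replicate 1 lay in a cluster of that library, 91.7% of those of CKO replicate 2 in the first of the 2 WT clusters, and the WT libraries were spread over both. Within that shared cluster Abcg3 had 215 CPM in CKO replicate 2, against 487 and 414 CPM in the WT libraries, and in the cluster of CKO replicate 1 it had 218 CPM. In the second WT cluster Abcg3 had 318 and 263 CPM in the WT libraries. Abca9 in the shared cluster had 97.3 CPM in CKO replicate 2, against 153 and 133 CPM in WT, and 51.9 CPM in the cluster of CKO replicate 1. For both genes CKO replicate 2 lay below both WT libraries within the cluster they share. Abcc12 had 6 and 0 UMIs in the macrophage-like nuclei of CKO, against 32 and 4 UMIs in WT (log2 -1.95, SE 0.81, unadjusted p = 0.0393, adjusted p = 0.913 by the edgeR test). It was not raised in this class. The fewest-UMI barcodes showed the same order of groups for Abcc12, with 2.34 and 0 CPM in CKO, against 9.36 and 4.41 CPM in WT. Abca1 and Abcg1, the cholesterol exporters of macrophages, had log2 changes of -0.08 (SE 0.26) and 0.14 (SE 0.24), both within 1 SE of 0.

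In endothelial-like nuclei 24 of 42 tested members had a positive and 18 a negative log2 change. For 10 (background 16.1%) both CKO libraries lay above both WT libraries, and for 4 (background 18%) below. Beside Abcb11 and Slc10a1, the smallest p belonged to Abca8a, with 20.6 and 17.2 scaled CPM in the CKO libraries, against 37.8 and 26.8 scaled CPM in the WT libraries (log2 -0.78 with SE 0.37 in the edgeR fit), Slco2b1, with 42.7 and 38.7 scaled CPM in the CKO libraries, against 27.5 and 22.0 scaled CPM in the WT libraries (log2 0.68 with SE 0.32 in the edgeR fit), and Abcd2, with 48.8 and 12.9 scaled CPM in the CKO libraries, against 21.4 and 22.0 scaled CPM in the WT libraries (log2 0.85 with SE 0.45 in the edgeR fit). None of these was raised in the class, at 0.891, 0.875 and 0.934 times the fewest-UMI level, and the sign of Abcd2 turned without CKO replicate 1. Slco2a1, which marked the class, had 171 and 155 scaled CPM in the CKO libraries, against 194 and 146 scaled CPM in the WT libraries (log2 -0.07 with SE 0.27 in the edgeR fit), and Abcc9 had 88.5 and 47.3 scaled CPM in the CKO libraries, against 83.7 and 78.1 scaled CPM in the WT libraries (log2 -0.12 with SE 0.30 in the edgeR fit). The 94.1% of endothelial-like nuclei of CKO replicate 1 that formed their own cluster stand beside these values.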

How the data were processed

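Single-nucleus RNA was captured with the 10x Genomics 3' v3.1 kit from fresh-frozen livers, with paraformaldehyde added to the homogenate, per the labels' protocols. The deposited matrices hold raw UMI counts per gene and barcode, made by the authors with Cell Ranger 5.0.1 on mm10, per the submitters' processing notes; whether intronic reads were counted is not given in the sources used here. The 7 added sequences were left out of the 32285 mouse genes. Barcodes needed 500 genes, and 0 fell below.

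Doublets were scored by simulation and removed at 0.8% of barcodes per 1000 barcodes of the library. Counts were scaled to 10000 per barcode, and barcodes were grouped into 22 clusters by the Leiden method (resolution 1) from 15 neighbours in 30 components of 2000 variable genes, the 67 members left out (scanpy 1.11.5, igraph 0.11.9, Python 3.11.15). A cluster took the class with the largest share of its markers at 1.5 times the level in the fewest-UMI barcodes. At least 3 markers and 40% of the list were needed, and any other cluster stayed unnamed. This rule was chosen after the clusters were seen. The members, gene lists and tests were chosen with earlier results of these data known.

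UMIs were summed per class and library, filtered with filterByExpr, scaled by TMM and tested with the quasi-likelihood test of edgeR 4.0.16 in R 4.3.3 (prior of 1 CPM where a ratio is shown), checked on simulated data; scaled CPM are CPM after TMM. SE was derived from the F statistic of this edgeR test, as the size of the log2 change divided by the square root of F. It is therefore not an estimate separate from the test. A class needed 20 nuclei in each library. Each comparison was repeated with DESeq2 1.42.0, without the count filter, with RLE in place of TMM, with a replicate block, with 1000 UMIs per barcode, with doublets kept, at resolution 2 and without each library. Members with 50 UMIs and a known role were to be named in hepatocyte-like and cholangiocyte-like nuclei, those raised in other classes, and in each class the 5 with the smallest p; of the cholangiocyte-like nuclei the text gives the raised ones and the main carriers. Results of some genes are not reported here. Listed genes were named where among the 5 or 6 smallest p. Comments on other single genes were added after their values were seen. Promoters came from RefSeq (53 of 67 members matched by symbol) and gene positions from GENCODE on GRCm38. Statements on depth cover counting error only.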

Additional observations from a re-analysis of the deposited data

How the results depend on the processing

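With 2 libraries a group and 46 cholangiocyte-like nuclei in CKO replicate 2, changes of low members were not detectable at this depth. The count of genes called was 0 in all 5 classes with RLE scaling, at least 1000 UMIs per barcode, no doublet removal and Leiden resolution 2. With DESeq2 it was 2 in hepatocyte-like, 2 in endothelial-like, 1 in mesenchymal-like and 4 in macrophage-like nuclei, and with no count filter it was 108 in cholangiocyte-like, 87 in endothelial-like, 142 in mesenchymal-like and 130 in macrophage-like nuclei. Leaving out each library gave 0 to 153 calls in hepatocyte-like, 3 to 16 in cholangiocyte-like, 0 to 430 in endothelial-like, 26 to 342 in mesenchymal-like and 0 to 67 in macrophage-like nuclei, the group left with 1 library being assumed to vary like the other. The highest counts came without CKO replicate 1 (153 in hepatocyte-like, 67 in macrophage-like) and without CKO replicate 2 (16 in cholangiocyte-like, 430 in endothelial-like, 342 in mesenchymal-like). Members were among them without CKO replicate 1 in hepatocyte-like (Abcc4, Abcc5, Slco1a1), endothelial-like (Abcd3, Slc10a1, Slco1a1) and mesenchymal-like nuclei (Slc10a1, Slco1b2). They were also among them without CKO replicate 2 in endothelial-like (Abcb11, Abcd2) and mesenchymal-like nuclei (Abca9, Abcb11), and with no count filter in endothelial-like nuclei (Slco1a1). The median change of all genes moved by more than 0.1 (log2) in cholangiocyte-like nuclei with no count filter, to -0.13, and without CKO replicate 1, to -0.13, and in mesenchymal-like nuclei with no count filter, to -0.10. With the replicate block 3 genes were called in endothelial-like and 9 in macrophage-like nuclei, none of them members, and 0 in the other 3 classes. The labels do not say that a replicate number marks shared animals or days. The differences between replicates correlated between groups by 0.26, 0.12, 0.12, 0.07 and 0.13 across genes in hepatocyte-like, cholangiocyte-like, endothelial-like, mesenchymal-like and macrophage-like nuclei. Both replicate 1 libraries held 16000 barcodes, against 5184 in CKO replicate 2 and 6480 in WT replicate 2. The main test did not pair the samples by these numbers, and whether they mark a batch was not tested. Of 316 values of the 29 changes given for named members under alternatives, 302 kept their sign and their side of the threshold, 7 kept their sign and passed it, and 7 turned sign, of which 1 (Abcc4 in hepatocyte-like nuclei without CKO replicate 1) also passed it. With the replicate block Abcc4 in hepatocyte-like nuclei turned to -1.12. Over the libraries left out, the log2 change ran from -1.66 to 0.35 for Abcf3 in cholangiocyte-like nuclei and from -0.74 to 1.19 for Abcd2 in endothelial-like nuclei. In hepatocyte-like nuclei it ran from -0.90 to 0.93 for Abcb11, from -1.68 to 2.49 for Slco1a1, from -3.52 to 1.14 for Abcc4 and from -0.13 to 1.23 for Slc10a1. The cause of these changes was not tested. Other limits for a raised member were chosen after seeing the data. A limit of 3 times the fewest-UMI level gave 12, 3, 2, 3 and 5 raised members in hepatocyte-like, cholangiocyte-like, endothelial-like, mesenchymal-like and macrophage-like nuclei. A limit of 1.5 times gave 25, 10, 8, 8 and 11. Leaving out each library gave 17 to 20, 5 to 6, 3 to 6, 5 to 7 and 6 to 9 in the same order.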
